A study of Homo sapiens with 18 samples.

Results

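Genes that encode the core transcription factors of the epithelial-mesenchymal transition (EMT), together with the OVOL factors that oppose them, were followed by symbol. These were *ZEB1*, *ZEB2*, *SNAI1*, *SNAI2*, *TWIST1*, *TWIST2*, *PRRX1*, *TCF4*, *OVOL1* and *OVOL2*, and each of the 10 was found once among the 40266 gene symbols of the table. RNA-seq had been run on 2 human pancreatic ductal adenocarcinoma (PDAC) lines, Panc1 (labelled PANC-1) and Panc89, and from either line the parental population, a Holoclone and a Paraclone were sequenced, which makes 6 groups with 3 libraries apiece. Panc1 came from a primary tumor and served as the mesenchymal-like model, Panc89 came from a lymph node metastasis and served as the epithelial model, and none of the 6 cell variants had been treated. Holoclone cells grow in tight colonies and stood for cancer stem cells (CSCs), while Paraclone cells grow dispersed and stood for non-CSCs. Each Holoclone or Paraclone population was 1 clone expanded from a single cell and kept for its colony shape, and the libraries of a group were RNA of different passages. The p-values therefore measure the spread between passages, pooled over the 6 populations, and not the spread between clones.

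EMT is the program in which epithelial cells loosen their junctions and take on motile, mesenchymal traits, and in pancreatic cancer it is linked to invasion. The ZEB and SNAI proteins are zinc finger repressors that bind E-box sequences in the promoters of junction genes such as *CDH1* (E-cadherin), while TWIST proteins and TCF4 are basic helix-loop-helix factors that bind E-boxes as dimers and PRRX1 is a homeobox factor. OVOL1 and OVOL2 are zinc finger repressors of epithelia that hold down *ZEB1* and other EMT genes, and the microRNAs of the miR-200 family do so at the *ZEB1* and *ZEB2* transcripts, whose proteins in turn repress the miR-200 genes.

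The seeds of these microRNAs are shown first because *ZEB1* and *ZEB2* are their best known targets and because the transcripts that carry miR-200c, miR-141 and miR-205 were measured here. The mature sequences are those of RefSeq on GRCh38.p14, written 5′ to 3′ with the seed (bases 2 to 8) in capitals.
hsa-miR-200b-3p: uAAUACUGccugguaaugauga
hsa-miR-200c-3p: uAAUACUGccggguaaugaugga
hsa-miR-429: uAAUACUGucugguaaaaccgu
hsa-miR-200a-3p: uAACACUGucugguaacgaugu
hsa-miR-141-3p: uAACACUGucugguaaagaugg
hsa-miR-205-5p: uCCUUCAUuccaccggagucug
miR-200b, miR-200c and miR-429 share 1 seed, and miR-200a and miR-141 share another. In the 3′ UTR of the canonical *ZEB1* transcript (2543 bases, GENCODE 44), the match to the first seed, CAGTATT, occurred 6 times, the match to the second, CAGTGTT, 3 times and the match to the miR-205 seed, ATGAAGG, once. For *ZEB2* (5373 bases) the counts were 5, 4 and 0. These matches are letters in the sequence, and mature microRNAs were not measured in these libraries.

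Promoter windows, from 250 bases before to 50 bases after a start site, were given for 5 of the 10 genes. There were 20 windows, most of them of *TCF4* and *ZEB1*. OVOL factors bind the core CCGTTA. On either strand it occurred in 3.07% of 35116 human promoter windows, and among the windows of these genes once at *ZEB1* (chr10:31319518-31319817, plus strand, first base at −203 from the start site) and once at *ZEB2* (chr2:144520070-144520369, minus strand, first base at 24 after the start site, as TAACGG). Both windows are given in full, RefSeq on GRCh38.p14, 5′ to 3′ along the gene, with the OVOL core in capitals.
ZEB1: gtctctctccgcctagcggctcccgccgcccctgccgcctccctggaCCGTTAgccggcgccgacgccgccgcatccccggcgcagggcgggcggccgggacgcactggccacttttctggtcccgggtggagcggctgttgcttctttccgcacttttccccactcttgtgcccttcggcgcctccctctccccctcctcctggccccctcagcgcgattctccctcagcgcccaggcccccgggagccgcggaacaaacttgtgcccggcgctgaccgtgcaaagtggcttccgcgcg
ZEB2: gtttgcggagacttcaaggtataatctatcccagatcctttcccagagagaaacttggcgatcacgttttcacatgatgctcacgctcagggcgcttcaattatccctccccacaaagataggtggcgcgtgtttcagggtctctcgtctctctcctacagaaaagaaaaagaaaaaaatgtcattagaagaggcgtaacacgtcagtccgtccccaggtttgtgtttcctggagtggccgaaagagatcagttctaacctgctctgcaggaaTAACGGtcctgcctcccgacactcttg
The ZEB and SNAI site CACCTG or CAGGTG occurred in 20.6% of all windows. A second *ZEB1* window, chr10:31318966-31319265 on the plus strand, held it 3 times, and a window at chr10:31318167-31318466 held it 1 time. The remaining *ZEB1* windows held neither this site nor the OVOL core. None of the given windows of *ZEB2*, *TWIST2*, *PRRX1* or *TCF4* held CACCTG or CAGGTG. Binding at these windows was not measured.

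Values are log2(TPM + 1), where TPM is the usual measure of transcript abundance, scaled for transcript length and library size, so that levels can be compared between genes. As TPM, the libraries summed to 985339 to 988066, they held 12932 to 14199 genes at 1 TPM or more, and no sequencing depth was given. The comparisons used limma-trend and covered the 16093 genes that reached 1 TPM in 3 libraries or more, with p-values adjusted over these genes by Benjamini-Hochberg and 0.05 as the threshold. Fold changes are differences on the log2(TPM + 1) scale, which understates the change of a gene near or under 1 TPM: with 0.1 TPM added in place of 1, the parental difference in *ZEB1* reached −6.84. Over all tested genes the median log2 fold change of Holoclone against Paraclone cells of Panc1 was 0.19, and it moved to 0.01 under upper quartile scaling and 0.00 under median-of-ratios scaling. Likewise, the median of parental Panc89 against Panc1 cells moved from −0.18 to −0.04 and 0.02, and that of Panc1 Paraclone against parental cells from −0.17 to −0.02 and 0.00. The keratins *KRT8*, *KRT18*, *KRT19* and *KRT7* and *EPCAM*, markers of carcinoma cells, were at 1 TPM or more in 18 of 18 libraries, and *CDH1* in 15. Of the mesenchymal-like markers, *VIM* and *SPARC* were so in the 9 Panc1 libraries, *CDH2* in 18, *ZEB1* in 11, *NES* in 10 and *FN1* in 8 libraries. Of 6 markers each for fibroblasts, leukocytes and endothelial cells, some were present. Among fibroblast markers *DCN*, *PDGFRA* and *COL3A1* stayed under 1 TPM in all libraries, *LUM* and *PDGFRB* passed it in 1 library each (up to 1.15 and 1.13 TPM) and *THY1* in 9 (up to 14.6 TPM). Their sum was 6.61 to 15.2 TPM in Panc1 and 0.161 to 1.33 TPM in Panc89 libraries. Among leukocyte markers *PTPRC*, *CD3E* and *LYZ* stayed under 1 TPM, while *CD68* passed it in 18 libraries (up to 151 TPM) and *ITGAM* in 6 (up to 1.81 TPM), and the sum was 54.1 to 152 TPM in Panc1 and 10.1 to 63.2 TPM in Panc89. Among endothelial markers *VWF*, *TEK* and *KDR* stayed under 1 TPM, while *PECAM1* passed it in 7 libraries (up to 64.7 TPM, in parental Panc89 cells), *CDH5* in 5 (up to 5.07 TPM) and *CLDN5* in 2 (up to 3.76 TPM). Their sum was at most 0.424 TPM in Panc1, 55.7 to 69.4 TPM in parental, 1.43 to 2.39 TPM in Holoclone and 5.39 to 10.9 TPM in Paraclone cells of Panc89. The part of these markers in the results was not tested.

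Of the 10 genes, 8 entered the test. *TWIST1* was listed at 0 in all 18 libraries and *PRRX1* stayed under 1 TPM. *ZEB2* entered only through the 3 Panc89 Paraclone libraries, and *SNAI2*, *OVOL1* and *OVOL2* only through the 9 Panc89 libraries, so these genes could enter only by being high there. RNA of whole cultures was measured, in which fewer cells that express a gene and less RNA per cell cannot be told apart.

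**Figure D1:**
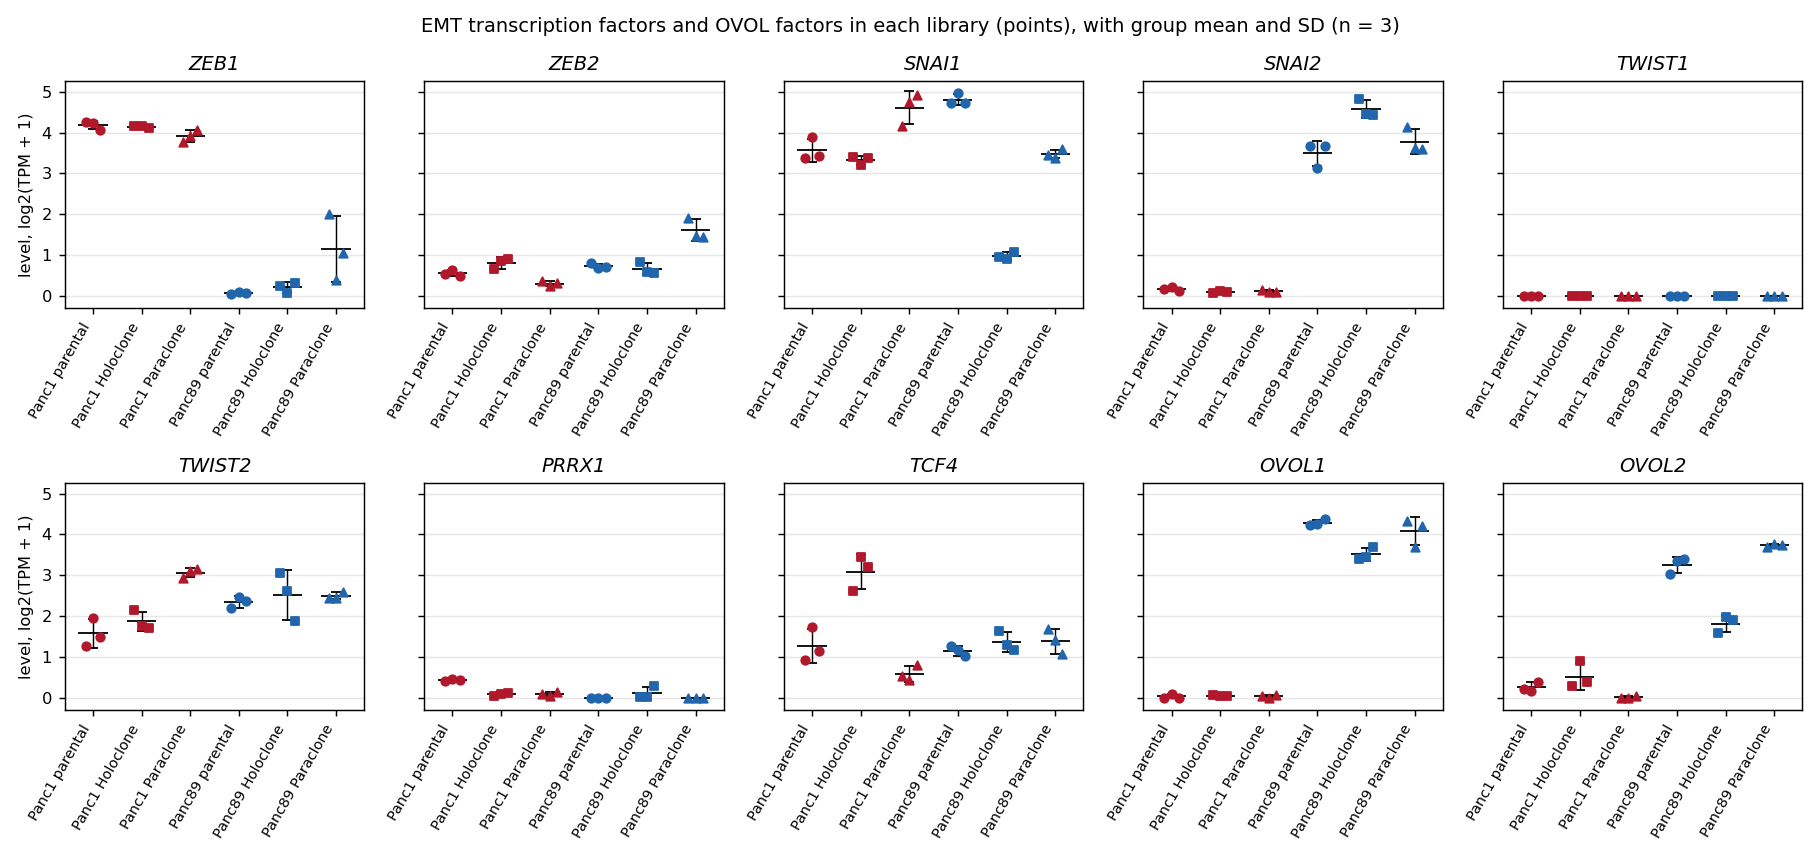
Level of each of the 10 genes on the log2(TPM + 1) scale (vertical axis) in the 6 groups (horizontal axis), with 1 point per library, a line at the group mean and bars of 1 SD (n = 3). *ZEB1* lies between 3.78 and 4.25 in the Panc1 libraries and at most at 2.00 in Panc89, while *SNAI2*, *OVOL1* and *OVOL2* are high only in Panc89, and *TWIST1* is at 0 throughout.

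Of the ZEB factors, *ZEB1* was abundant in Panc1 alone and *ZEB2* was low in both lines. *ZEB1* (chr10:31318495-31529814, plus strand, GRCh38) was at 4.25, 4.23 and 4.07 in parental Panc1 cells, at 4.17, 4.16 and 4.12 in Panc1 Holoclone cells and at 3.78, 3.93 and 4.06 in Panc1 Paraclone cells. The Panc89 values were 0.04, 0.10 and 0.08 in parental, 0.23, 0.06 and 0.33 in Holoclone and 2.00, 0.40 and 1.06 in Paraclone cells. All Panc1 libraries thus lay above all Panc89 libraries, and within Panc89 only the Paraclone cells lay above the others, with a wide spread between their passages.

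As a mean, *ZEB1* was at 17.2 ± 1.21 TPM (SD, n = 3) in parental Panc1 and at 0.0519 ± 0.0210 TPM in parental Panc89 cells. Its log2 fold change, Panc89 against Panc1, was −4.11 in parental cells (SE 0.26, adjusted p = 1.6e-09), −3.94 in Holoclone cells (adjusted p = 2.59e-09) and −2.77 in Paraclone cells (adjusted p = 1.91e-07, all limma-trend). In parental cells this placed *ZEB1* at rank 157 from the lowest of the 16093 genes. Between the Panc1 clones no difference was called (0.23, SE 0.26, adjusted p = 0.555 in limma-trend), and the direction of this value turned under upper quartile scaling (−0.0078) and median-of-ratios scaling (−0.03). The SE pools the spread of all groups, whose SD was 0.027 in Panc1 Holoclone, 0.14 in Panc1 Paraclone and 0.81 in Panc89 Paraclone cells.

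Within Panc89, *ZEB1* had a log2 fold change of −0.95 between Holoclone and Paraclone cells (SE 0.26, adjusted p = 0.0107) and was higher in Paraclone than in parental cells by 1.08 (adjusted p = 0.00866, limma-trend). Both calls were lost when only the libraries of the compared groups were fitted (adjusted p = 0.151 and 0.134). Without Panc89 Paraclone replicate 1, which was at 3.00 TPM beside 0.318 and 1.09 TPM in the other libraries of the group, the log2 fold changes were −0.53 (adjusted p = 0.0335) and 0.66 (adjusted p = 0.0194).

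*ZEB2* (chr2:144364364-144521057, minus strand), the paralog of *ZEB1*, was low throughout. It was at 0.53, 0.63 and 0.50 in parental Panc1 cells, 0.65, 0.86 and 0.91 in Panc1 Holoclone cells and 0.35, 0.24 and 0.31 in Panc1 Paraclone cells. Among Panc89 libraries it was at 0.80, 0.69 and 0.70 in parental, 0.82, 0.59 and 0.55 in Holoclone and 1.92, 1.47 and 1.45 in Paraclone cells. Only the Panc89 Paraclone libraries exceeded 1 TPM, and they overlapped no other group.

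The 2 clone contrasts of *ZEB2* ran in opposite directions. In Panc1, Holoclone cells were above Paraclone cells by 0.50 (SE 0.14, adjusted p = 0.00968), with all libraries of both groups under 1 TPM. In Panc89, Holoclone cells were below Paraclone cells, at −0.96 (SE 0.14, adjusted p = 6.74e-05, limma-trend), and parental cells were also below Paraclone cells (0.89 for Paraclone against parental, adjusted p = 0.000308). The difference between the 2 contrasts was −1.47 (SE 0.20, adjusted p = 3.65e-05). Paraclone cells of Panc89 were above those of Panc1 (1.31, adjusted p = 6.59e-07), whereas parental and Holoclone cells of the lines did not differ at the threshold (0.18, adjusted p = 0.278, and −0.15, adjusted p = 0.346, limma-trend).

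The OVOL factors reached 1 TPM only in Panc89 libraries. *OVOL1* (chr11:65787063-65797214, plus strand) was at no more than 0.09 in any Panc1 library. In Panc89 it was at 4.22, 4.26 and 4.37 in parental, 3.39, 3.45 and 3.69 in Holoclone and 4.33, 3.69 and 4.21 in Paraclone cells. The Holoclone libraries thus lay at the lower end, the highest of them just under the lowest Paraclone library. For scale, parental Panc89 cells held 18.5 ± 1.06 TPM (SD, n = 3) of *OVOL1*, close to the *ZEB1* level of parental Panc1 cells.

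Between the lines *OVOL1* was higher in Panc89 by 4.25 (SE 0.15, adjusted p = 9.87e-13) in parental, 3.46 (adjusted p = 1.05e-11) in Holoclone and 4.05 (adjusted p = 1.7e-12) in Paraclone cells by limma-trend. Panc89 Holoclone cells were below parental cells (−0.77, SE 0.15, adjusted p = 0.00113) and below Paraclone cells (−0.57, SE 0.15, adjusted p = 0.00676, limma-trend). The second call was lost with 0.1 TPM added (adjusted p = 0.0675) and when the 2 groups were fitted alone (adjusted p = 0.117). In GENCODE 44, 26.2% of the 31-base stretches of *OVOL1* transcripts are shared with another gene, the most with an antisense long noncoding RNA, and reads of such stretches may be split between the 2 genes.

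*OVOL2* (chr20:17956979-18059188, minus strand) varied more between the cell variants. It was at 0.22, 0.16 and 0.39 in parental Panc1 cells, 0.28, 0.89 and 0.37 in Panc1 Holoclone cells and 0, 0 and 0.03 in Panc1 Paraclone cells. The Panc89 libraries held 3.04, 3.34 and 3.38 in parental, 1.58, 1.96 and 1.90 in Holoclone and 3.69, 3.76 and 3.73 in Paraclone cells. The Panc89 groups did not overlap and ran from Paraclone over parental to Holoclone cells. In TPM these were means of 12.3 ± 0.307, 8.60 ± 1.22 and 2.54 ± 0.485 (SD, n = 3).

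Panc89 Holoclone cells were therefore lower in *OVOL2* than Paraclone cells (−1.91, SE 0.16, adjusted p = 3.01e-07) and than parental cells (−1.44, SE 0.16, adjusted p = 1.04e-05, limma-trend). The difference of Paraclone against parental cells, 0.47, missed the threshold (adjusted p = 0.0542) and passed it under median-of-ratios scaling (0.51, adjusted p = 0.047). In Panc1 the direction was the reverse, with Holoclone above Paraclone cells by 0.50 (SE 0.16, adjusted p = 0.0233), all under 1 TPM. This call was lost without Panc1 Holoclone replicate 2 (0.32, adjusted p = 0.124) and without each Panc1 Paraclone library in turn (adjusted p = 0.0508 to 0.0626). It was also lost under median-of-ratios scaling (adjusted p = 0.0563) and when only the compared groups were fitted (adjusted p = 0.0622, limma-trend). The difference between the 2 contrasts was −2.42 (SE 0.23, adjusted p = 1.2e-06, limma-trend). *OVOL2* overlaps *SNX5* on its own strand and *MGME1* on the opposite strand, which reached 113 and 40.1 TPM, and 1.38% of its 31-base stretches are shared with another gene, the most with *SNX5*.

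**Figure D2:**
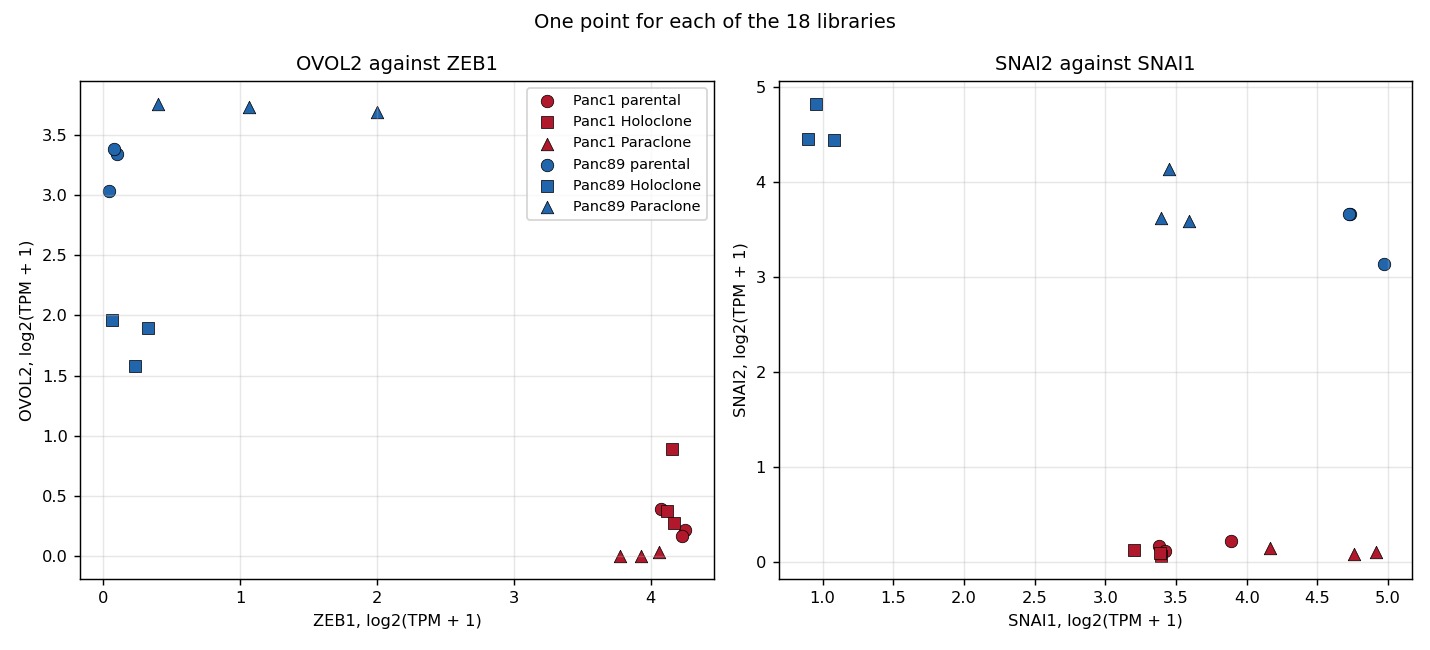
Each point is 1 of the 18 libraries on log2(TPM + 1) axes, *OVOL2* against *ZEB1* on the left and *SNAI2* against *SNAI1* on the right, with color for the line and shape for the cell variant. Panc1 libraries lie at high *ZEB1* and low *OVOL2*, Panc89 libraries at low *ZEB1* with *OVOL2* from 1.58 to 3.76, and the 3 Panc89 Holoclone libraries lie at the lowest *SNAI1* and the highest *SNAI2*.

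*OVOL2* and *ZEB1* are known to repress each other, which was not tested here. The Panc1 libraries combined high *ZEB1* with low *OVOL2*, while parental Panc89 libraries had the reverse. In Panc89 Paraclone cells *ZEB1*, *ZEB2* and *OVOL2* each had the highest mean of the line. For *OVOL2* the difference from parental cells missed the threshold. The *ZEB1* libraries there were at 3.00, 0.318 and 1.09 TPM, and its calls were lost when only the compared groups were fitted (adjusted p = 0.151 and 0.134 in limma-trend). In Panc89 Holoclone cells *ZEB1* was low and *OVOL2* had its lowest mean of the line, though above Panc1 Holoclone cells (1.30, adjusted p = 3.83e-06 in limma-trend). Whether the same cells of a culture held both transcripts was not measured.

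*SNAI1* changed more than any other of the 8 tested genes within Panc89. *SNAI1* (chr20:49982980-49988886, plus strand), which encodes Snail, was at 3.38, 3.89 and 3.42 in parental Panc1 cells, 3.39, 3.20 and 3.39 in Panc1 Holoclone cells and 4.16, 4.76 and 4.92 in Panc1 Paraclone cells. Its Panc89 values were 4.73, 4.97 and 4.72 in parental, 0.95, 0.89 and 1.08 in Holoclone and 3.45, 3.39 and 3.59 in Paraclone cells. The Panc89 Holoclone libraries, near 1 TPM, stood far under the other 15, and the highest levels were in parental Panc89 and Panc1 Paraclone cells, which overlapped.

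Against Paraclone cells, Holoclone cells were lower in *SNAI1* in both lines, by −1.29 in Panc1 (SE 0.18, adjusted p = 4.79e-05) and −2.50 in Panc89 (SE 0.18, adjusted p = 4.71e-08). The difference between the lines, −1.22 (SE 0.25, adjusted p = 0.00161, limma-trend), was itself past the threshold. Against parental cells, however, the picture differed: Panc89 Holoclone cells were lower by −3.83 (SE 0.18, adjusted p = 8.59e-10), rank 29 from the lowest of the 16093 genes, while in Panc1 it was the Paraclone cells that were higher than parental cells (1.05, adjusted p = 0.000502) and Holoclone cells did not differ from them at the threshold (−0.24, adjusted p = 0.491, limma-trend). Panc89 Paraclone cells were also lower than parental Panc89 cells (−1.33, adjusted p = 9.05e-05).

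Because of this, the difference in *SNAI1* between the lines depended on the cell variant. It was higher in Panc89 in parental cells (1.24, adjusted p = 1.72e-05) and lower in Holoclone (−2.35, adjusted p = 1.28e-08) and Paraclone cells (−1.13, adjusted p = 5.04e-05, limma-trend).

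*SNAI2* (chr8:48917598-48921740, minus strand), which encodes Slug, was at no more than 0.22 in any Panc1 library. In Panc89 it was at 3.66, 3.14 and 3.67 in parental, 4.82, 4.45 and 4.44 in Holoclone and 4.14, 3.62 and 3.59 in Paraclone cells. The Holoclone libraries were the highest and overlapped neither of the other Panc89 groups, with a mean of 23.0 ± 3.75 TPM (SD, n = 3) beside 0.969 ± 0.132 TPM for *SNAI1* in the same cells. The 2 paralogs thus took opposite ends in the Panc89 Holoclone cells.

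Its log2 fold change, Panc89 against Panc1, was 3.32 (SE 0.17, adjusted p = 1.23e-10) in parental, 4.48 (adjusted p = 3.19e-12) in Holoclone and 3.67 (adjusted p = 3.64e-11) in Paraclone cells. Within Panc89, Holoclone cells were above Paraclone cells by 0.79 (SE 0.17, adjusted p = 0.00202) and above parental cells by 1.08 (adjusted p = 0.000247), while Paraclone and parental cells did not differ at the threshold (0.29, adjusted p = 0.276, limma-trend).

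Of the TWIST genes, *TWIST1* (chr7:19020991-19117636, minus strand) was listed at 0 everywhere. The file holds no counts, so no upper limit can be given for it, and 4.43% of its 31-base stretches are shared with another gene, the most with an antisense RNA. *TWIST2* (chr2:238848032-238910534, plus strand) was above 1 TPM in all 18 libraries and was the family member expressed in both lines. It was at 1.27, 1.96 and 1.49 in parental Panc1 cells, 2.14, 1.76 and 1.72 in Panc1 Holoclone cells and 2.93, 3.10 and 3.16 in Panc1 Paraclone cells. Among the Panc89 cells it was at 2.19, 2.47 and 2.38 in parental, 3.06, 2.61 and 1.87 in Holoclone and 2.45, 2.43 and 2.59 in Paraclone cells. The Panc1 Paraclone libraries lay above all other Panc1 libraries, while the Panc89 groups overlapped.

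In Panc1, Paraclone cells were higher in *TWIST2* than parental cells (1.49, SE 0.24, adjusted p = 0.000343), and Holoclone cells were lower than Paraclone cells (−1.19, SE 0.24, adjusted p = 0.00122, limma-trend). In Panc89, no such difference was called (0.02, SE 0.24, adjusted p = 0.964, with the direction turned under both other scalings), and the difference between the lines was 1.22 (SE 0.35, adjusted p = 0.0125). Panc89 was higher than Panc1 in parental cells (0.77, adjusted p = 0.0115), a call that was lost without Panc1 parental replicate 1 (0.62, adjusted p = 0.0585), and in Holoclone cells (0.64, adjusted p = 0.0296), a call lost without Panc89 Holoclone replicate 1 (0.37, adjusted p = 0.168) and in 5 other alternatives. Without Panc89 Holoclone replicate 3 this value was 0.97 (adjusted p = 0.000898, limma-trend). In Paraclone cells the value was −0.57 (adjusted p = 0.0544). It passed the threshold when the 2 groups were fitted alone (adjusted p = 0.0127) and under upper quartile scaling (−0.60, adjusted p = 0.0383, limma-trend).

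*PRRX1* (chr1:170662728-170739421, plus strand) was at 0.42, 0.46 and 0.43 in parental Panc1 cells. It was at 0.15 or less in the Panc1 clones, listed at 0 in parental and Paraclone cells of Panc89 and at most at 0.27 in Panc89 Holoclone cells. All of these are under 1 TPM, so the gene was left out of the test. In a fit without the filter on low values, the Panc1 Holoclone (−0.36, adjusted p = 0.000769) and Paraclone cells (−0.35, adjusted p = 0.0005) were below parental Panc1 cells, and parental Panc89 below parental Panc1 cells (−0.44, adjusted p = 1.03e-05, limma-trend).

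*TCF4* (chr18:55222185-55664787, minus strand), which encodes the E protein E2-2, marked 1 group. It was at 0.93, 1.72 and 1.14 in parental Panc1 cells, 2.61, 3.43 and 3.21 in Panc1 Holoclone cells and 0.53, 0.42 and 0.79 in Panc1 Paraclone cells. In Panc89 it was at 1.25, 1.17 and 1.02 in parental, 1.64, 1.29 and 1.17 in Holoclone and 1.67, 1.40 and 1.06 in Paraclone cells. The Panc1 Holoclone libraries lay above all other 15, at a mean of 7.72 ± 2.39 TPM (SD, n = 3), and the Panc1 Paraclone libraries lay under all others, whereas the Panc89 groups overlapped.

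Panc1 Holoclone cells were higher in *TCF4* than Paraclone cells by 2.50 (SE 0.24, adjusted p = 1.01e-06), rank 117 from the highest of the 16093 genes, and higher than parental cells by 1.82 (SE 0.24, adjusted p = 0.000123), rank 49. In Panc89 no difference was called between the clones (−0.01, SE 0.24, adjusted p = 0.984), and the difference between the lines was −2.51 (SE 0.34, adjusted p = 3.74e-05, limma-trend). Panc1 Paraclone cells were below parental cells (−0.68, adjusted p = 0.0442), a call that was lost without Panc1 parental replicate 2 (−0.45, adjusted p = 0.192), without Panc1 parental replicate 3 or without Panc1 Paraclone replicate 1 or 2, and under both other scalings (adjusted p = 0.0795 and 0.0953). Against Panc1, Panc89 was lower in Holoclone cells (−1.72, adjusted p = 1.17e-05) and higher in Paraclone cells (0.80, adjusted p = 0.00915, limma-trend). Parental cells did not differ at the threshold (−0.12, adjusted p = 0.682), a value whose direction turned under median-of-ratios scaling (0.02) and without Panc1 parental replicate 2 (0.11).

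Between the lines, 6 of the 8 tested genes passed the threshold in parental cells, 7 in Holoclone cells and 7 in Paraclone cells. Of all tested genes 66%, 65.8% and 60.7% did so in the same comparisons, so most tested genes differed between the lines. *ZEB1* was lower in Panc89 and *SNAI2*, *OVOL1* and *OVOL2* were higher in each of the 3, under each scaling tried, while *SNAI1* and *TCF4* took different directions in different cell variants. *SNAI2*, *OVOL1* and *OVOL2* could enter the test only by being high in Panc89, and *ZEB2* only in Panc89 Paraclone cells. The counts include these genes, so their calls as higher there are no independent result. With 0.1 TPM added in place of 1, the differences of the low genes grew by more than 1.5 times. In parental, Holoclone and Paraclone cells they then were 5.52, 7.10 and 6.15 for *SNAI2*, 7.30, 6.33 and 7.03 for *OVOL1* and 4.91, 2.41 and 6.85 for *OVOL2*. *ZEB1* was at −6.14 in Holoclone cells, and in Paraclone cells *ZEB2* was at 2.70 and *TCF4* at 1.52.

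**Figure D3:**
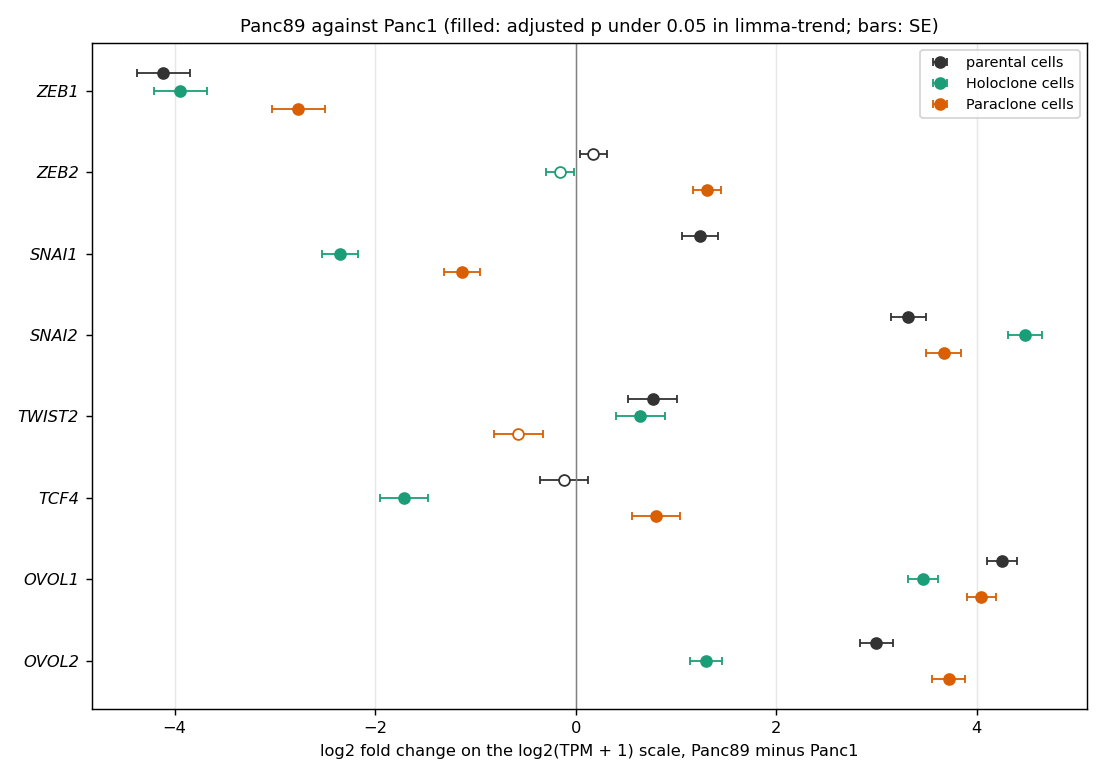
Log2 fold change on the log2(TPM + 1) scale (horizontal axis), Panc89 minus Panc1, for the 8 tested genes in parental, Holoclone and Paraclone cells, with bars of 1 SE from limma-trend and filled points for an adjusted p under 0.05. *ZEB1* lies left of 0 in the 3 cell variants (−4.11, −3.94 and −2.77), and *SNAI1* lies on the right in parental cells (1.24) but on the left in the clones.

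Between Holoclone and Paraclone cells, 5 of the 8 tested genes passed the threshold in Panc1, beside 37.3% of all tested genes, and 6 in Panc89, beside 35.7%. *SNAI1* was the only one that was lower in Holoclone cells of both lines. *ZEB2* and *OVOL2* passed in both lines with opposite signs, *TWIST2* and *TCF4* passed only in Panc1 and *ZEB1*, *SNAI2* and *OVOL1* only in Panc89. In Panc1 all values of *ZEB2* and *OVOL2* were under 1 TPM, and the *OVOL2* call there was lost in several alternatives. *ZEB2* could enter the test only by being high in Panc89 Paraclone cells. The *ZEB1* and *OVOL1* calls in Panc89 were lost when only the compared groups were fitted (adjusted p = 0.151 and 0.117 in limma-trend). The test of the difference between the lines passed for each of the 8, beside 35.1% of all tested genes, although that of *OVOL1* (−0.58, SE 0.21, adjusted p = 0.041) was lost in 10 of 12 fits without 1 library (adjusted p = 0.0609 to 0.106) and that of *ZEB1* (−1.17, SE 0.37, adjusted p = 0.0232) under both other scalings (adjusted p = 0.0618 and 0.0643, limma-trend). Without Panc89 Paraclone replicate 1 the *ZEB1* difference was −0.75 (adjusted p = 0.0229), and without Panc89 Holoclone replicate 2 it lost the threshold (−1.10, adjusted p = 0.0542, limma-trend). *SNAI2* and *OVOL1* were at no more than 0.22 and 0.09 in any Panc1 library, so for these genes the difference between the lines is nearly the change between the Panc89 clones. An offset of 0.1 TPM again enlarged the low values, to 1.35 for *ZEB2* and 2.20 for *OVOL2* between the Panc1 clones and to −2.27 for *ZEB1* and −1.69 for *ZEB2* between the Panc89 clones.

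**Figure D4:**
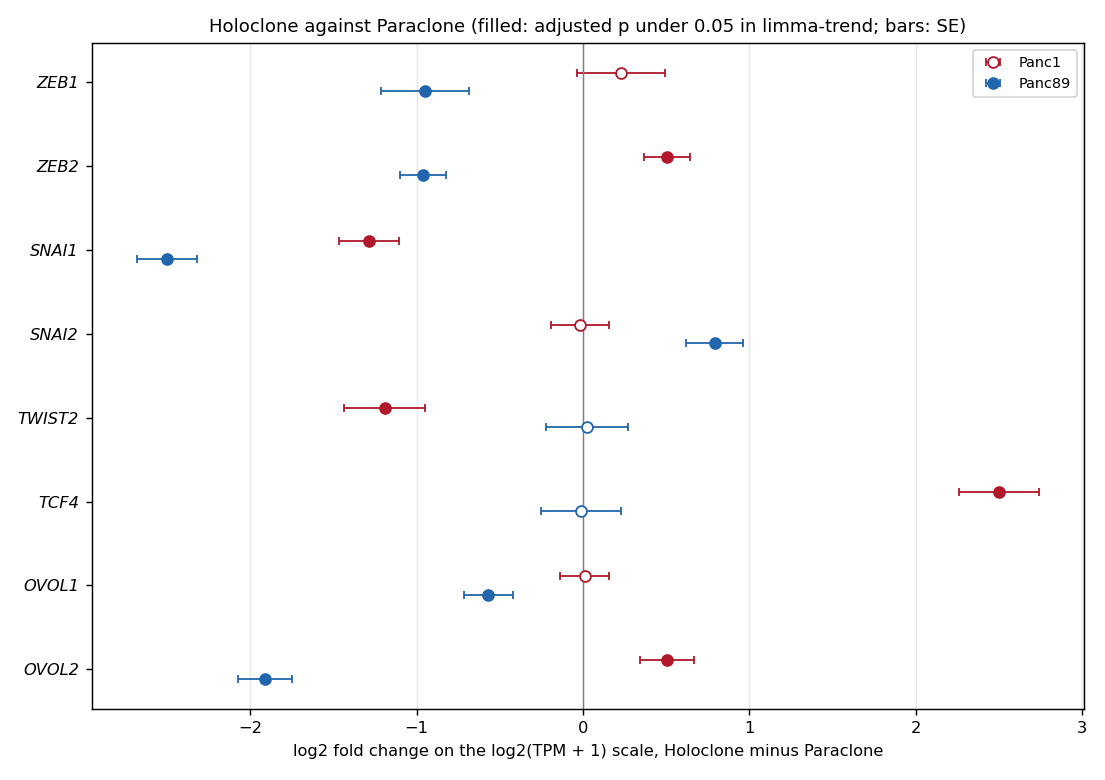
Log2 fold change on the log2(TPM + 1) scale (horizontal axis), Holoclone minus Paraclone, for the 8 tested genes in Panc1 and Panc89, with bars of 1 SE from limma-trend and filled points for an adjusted p under 0.05. *SNAI1* lies left of 0 in both lines (−1.29 and −2.50), and *TCF4* lies at 2.50 in Panc1 and at −0.01 in Panc89.

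Set against their parental cells, the Panc1 Holoclone cells differed in *TCF4* alone among the 8 tested genes, beside 10.9% of all tested genes. Panc1 Paraclone cells differed in 3 (28.6% of all tested genes), with *SNAI1* and *TWIST2* higher and *TCF4* lower. Panc89 Holoclone cells differed in 4 (24.7%), with *SNAI1*, *OVOL1* and *OVOL2* lower and *SNAI2* higher, and Panc89 Paraclone cells in 3 (19.4%), with *ZEB1* and *ZEB2* higher and *SNAI1* lower. *ZEB2* could enter the test only by being high in these Paraclone cells. The *ZEB1* call was lost when only the compared groups were fitted (adjusted p = 0.134 in limma-trend). The clone contrasts and the parental contrasts of a line share libraries and are not independent of each other. With an offset of 0.1 TPM the Paraclone against parental values were −1.33 for *TCF4* in Panc1, and 2.94 for *ZEB1* and 1.51 for *ZEB2* in Panc89.

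The genes on which these factors act were read from lists. In a list of 30 epithelial genes known to be repressed by ZEB and SNAI factors, 24 were higher and 4 lower in parental Panc89 than in parental Panc1 cells, with a median log2 fold change of 2.93 beside −0.18 over all tested genes, of which 27.5% were higher and 38.5% lower. *CDH1*, the E-cadherin gene and the classical target, stood at 1.20 ± 0.37 in parental cells of Panc1 and 6.25 ± 0.04 (SD, n = 3) in those of Panc89 (5.05, SE 0.19, adjusted p = 2.45e-12). *MAL2* (8.03) and *RAB25* (7.52), which encode proteins of epithelial membrane trafficking, were among the highest. Not all junction genes followed the line: the tight junction genes *CLDN3* (−2.76) and *OCLN* (−2.25) and the keratin gene *KRT8* (−0.83) were lower in Panc89.

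Between the clones the same list was divided. In Panc1, 12 of the 30 were higher and 6 lower in Holoclone than in Paraclone cells, with a median of 0.09 beside 0.19 over all tested genes, of which 27.4% were higher and 9.97% lower. Under median-of-ratios scaling 8 were higher and 7 lower, and the share of calls over all tested genes that were higher also fell. Desmoplakin (*DSP*, 3.75), *EPCAM* (3.48) and *OCLN* (2.57) were higher, while P-cadherin (*CDH3*, −2.98), *KRT19* (−2.48), *CLDN7* (−1.43) and *CDH1* (−0.95, adjusted p = 0.00094 in limma-trend) were lower in Panc1 Holoclone cells. In Panc89, 5 were higher and 12 lower, with a median of −0.14 beside 0.09 over all tested genes, of which 22.4% were higher and 13.3% lower. *CDH1* was at 6.58 ± 0.15 in Panc89 Holoclone and 6.63 ± 0.05 (SD, n = 3) in Panc89 Paraclone cells (−0.05, adjusted p = 0.884, limma-trend). *SNAI2* was higher and *SNAI1*, *ZEB1*, *ZEB2*, *OVOL1* and *OVOL2* were lower in these Holoclone cells, and their effect on *CDH1* was not tested. *MAL2* (0.95) and *MARVELD3* (0.46) were higher and *LLGL2* (−1.08), a polarity gene, *AP1M2* (−1.04) and *KRT8* (−0.98) lower.

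The host transcripts of the microRNAs shown above belonged to the same list and were present in Panc89 only. *MIR200CHG*, which carries miR-200c and miR-141, was at 5.50 ± 0.56 in parental, 4.81 ± 0.51 in Holoclone and 5.87 ± 0.64 in Paraclone cells of Panc89 (SD, n = 3), and at a mean of 0.10 or less in the Panc1 groups. It was lower in Panc89 Holoclone than in Paraclone cells (−1.06, SE 0.31, adjusted p = 0.0153, limma-trend), the direction of *OVOL2* in these cells and also that of *ZEB1* and *ZEB2*. *MIR205HG*, the host of miR-205, was at 6.90 ± 0.41, 8.63 ± 0.50 and 7.88 ± 1.52 in the same 3 groups, higher in Holoclone than in parental cells (1.73, adjusted p = 0.0186) but not different at the threshold from Paraclone cells (0.75, adjusted p = 0.27, limma-trend).

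Of 17 other epithelial transcription and splicing factors, 15 were tested, and 11 were higher and 3 lower in parental Panc89 than in parental Panc1 cells, with a median of 3.99 beside −0.18 over all tested genes (27.5% higher and 38.5% lower). The ETS factor *EHF* (5.77), the splicing regulator *ESRP1* (5.67) and *KLF5* (5.57) led, and *FOXA2* (−2.76) and *TFAP2A* (−0.59) were lower. Within Panc89, 10 were higher and 2 lower in Holoclone than in Paraclone cells, with a median of 0.96 beside 0.09 over all tested genes (22.4% higher and 13.3% lower), the opposite side to *OVOL1* and *OVOL2*. *FOXA2* (4.76), *TP63* (3.09) and *KLF4* (1.87) were higher there, and *FOXA1* (−2.34) and *TFAP2A* (−1.09) lower. In Panc1, 3 were higher and 5 lower, with a median of 0.01 beside 0.19 over all tested genes (27.4% higher and 9.97% lower), and *ELF3* (−3.57) and *KLF4* (−1.77) were lower in Holoclone cells. Under both other scalings 1 was higher and 6 lower in Panc1, where the share of calls over all tested genes that were higher also fell.

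Among 26 mesenchymal genes, 22 were tested. Vimentin (*VIM*), an intermediate filament of mesenchymal cells, stood at 11.87 ± 0.25 in the parental population of Panc1 and 0.09 ± 0.05 (SD, n = 3) in that of Panc89 (−11.78, SE 0.15, adjusted p = 5.11e-17), yet of the list 7 were higher and 10 lower in Panc89, with a median of −0.45 beside −0.18 over all tested genes (27.5% higher and 38.5% lower). *SPARC* (−9.46) was lower, and *LOX* (3.72) and *THBS1* (1.66) higher. In Panc1 Holoclone cells 13 were lower and 4 higher than in Paraclone cells, with a median of −1.31 beside 0.19 over all tested genes (27.4% higher and 9.97% lower). In Panc89 Holoclone cells 10 were lower and 4 higher, with a median of −0.61 beside 0.09 over all tested genes (22.4% higher and 13.3% lower). *S100A4* was lower in both (−2.97 and −2.52), *TNC* (−4.50) and *SPARC* (−4.38) in Panc1 and fibronectin (*FN1*, −2.56) and *LOXL2* (−1.96) in Panc89. *CDH2* (N-cadherin) was higher in Panc1 Holoclone cells (2.63). *VIM* was lower in Panc1 Holoclone than in Paraclone cells (−0.81, adjusted p = 0.000604) and did not differ at the threshold between the Panc89 clones (−0.28, adjusted p = 0.168, limma-trend).

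**Figure D5:**
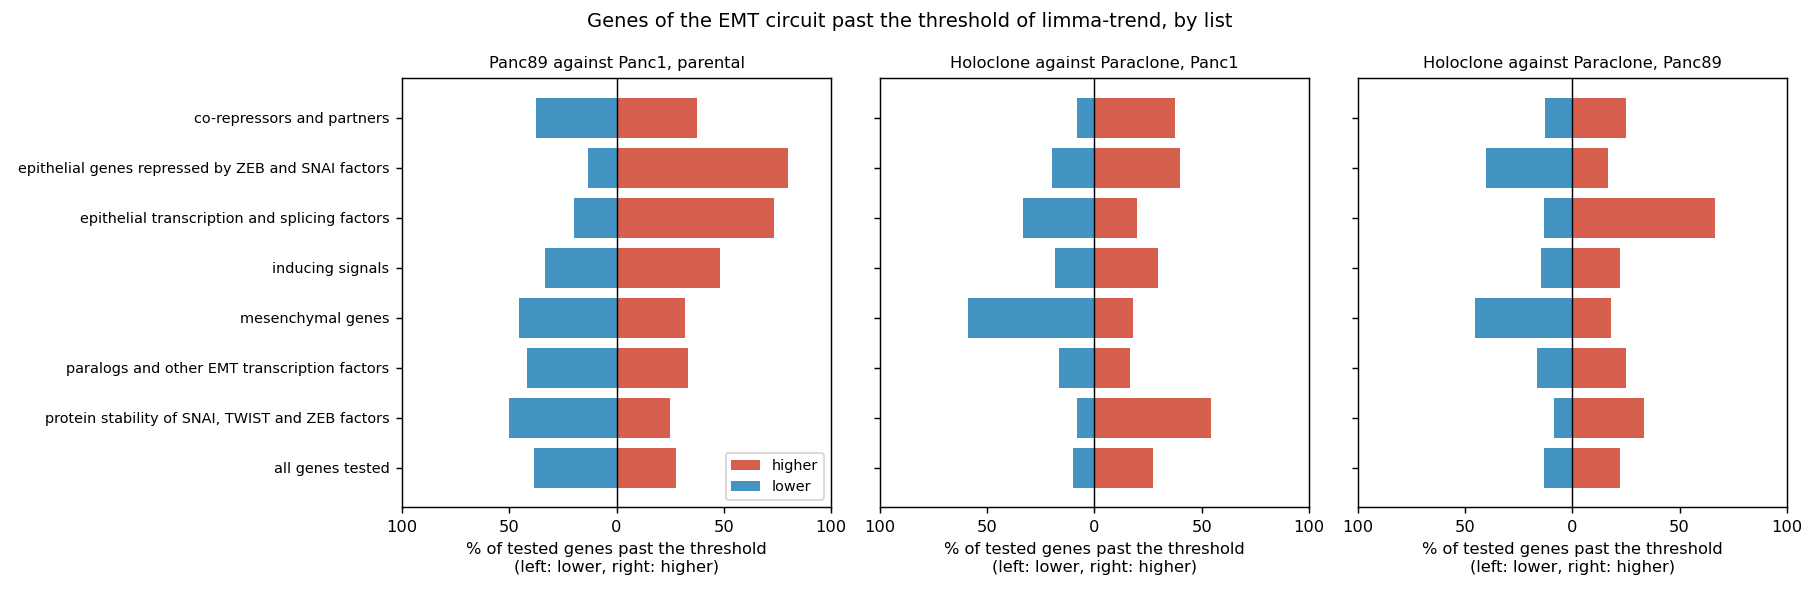
Share of the tested genes of each list past the threshold of limma-trend (horizontal axis, percent), higher to the right and lower to the left of 0, for parental Panc89 against Panc1 and for Holoclone against Paraclone cells in each line, with all tested genes in the bottom bar. Epithelial genes extend to the right between the lines (24 of 30 higher), and mesenchymal genes extend to the left between the clones of both lines (13 and 10 of 22 lower).

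Other EMT transcription factors and paralogs, 12 of 16 tested, had 4 higher and 5 lower in parental Panc89 cells and a median of −0.39 beside −0.18 over all tested genes, shares near those of all tested genes (27.5% higher and 38.5% lower). *FOXC2* (−4.00), *SOX9* (−2.05) and *PRRX2* (−2.02), the paralog of *PRRX1*, were lower, and *FOXQ1* (1.17) and *FOXC1* (0.63) higher. Between the Panc1 clones 2 were higher and 2 lower (27.4% and 9.97% of all tested genes), and between the Panc89 clones 3 were higher and 2 lower (22.4% and 13.3%), where *SOX9* was lower in Holoclone cells (−1.60). *TCF12*, an E protein like *TCF4*, was higher in Holoclone cells of both lines (0.85 in Panc1 and 0.46 in Panc89).

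Of 24 corepressors and partners through which the repressors act, 9 were higher and 9 lower in parental Panc89 cells, with a median of −0.23 beside −0.18 over all tested genes (27.5% higher and 38.5% lower). These included *ID1* (2.67), an inhibitor of helix-loop-helix dimers, and *SMARCA4* (2.30), which were higher, and the LIM protein genes *WTIP* (−3.37) and *LIMD1* (−1.74), whose products bind SNAI factors and which were lower. Against Paraclone cells, 9 were higher and 2 lower in Panc1 Holoclone cells, with a median of 0.39 beside 0.19 over all tested genes (27.4% higher and 9.97% lower). In Panc89 Holoclone cells 6 were higher and 3 lower, with a median of 0.13 beside 0.09 (22.4% and 13.3% of all tested genes). Under both other scalings the counts were 8 and 4 in Panc1 and 4 and 4 in Panc89, and the share of calls over all tested genes that were higher also fell in both lines. In Panc1 Holoclone cells *ID1* was lower than in Paraclone cells (−2.32), in the comparison in which *TCF4* was higher. *AJUBA*, another LIM partner of SNAI factors, was higher in Holoclone cells of both lines (1.18 in Panc1 and 1.66 in Panc89), and the histone demethylase gene *KDM1A* was lower in Panc89 Holoclone cells (−1.34).

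Of 24 genes for the stability of SNAI, TWIST and ZEB proteins, 6 were higher and 12 lower in parental Panc89 than in parental Panc1 cells, with a median of −0.51 beside −0.18 over all tested genes (27.5% higher and 38.5% lower). In Panc1 Holoclone cells 13 were higher and 2 lower than in Paraclone cells, with a median of 0.45 beside 0.19 over all tested genes (27.4% higher and 9.97% lower). *GSK3B*, the kinase that marks Snail for degradation, was higher by 1.22, and *PAK1*, a kinase that retains Snail in the nucleus, was lower (−1.02). Under median-of-ratios scaling 8 were higher and 3 lower, and the share of calls over all tested genes that were higher also fell. In Panc89, 8 were higher and 2 lower, with a median of 0.21 beside 0.09 (22.4% and 13.3% of all tested genes), led by *MDM2* (1.20) and *SIAH1* (0.89).

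Of 27 tested genes of inducing signals, 13 were higher and 9 lower in parental Panc89 than in parental Panc1 cells, with a median of 0.21 beside −0.18 over all tested genes (27.5% higher and 38.5% lower). Against Paraclone cells, 8 were higher and 5 lower in Panc1 Holoclone cells, with a median of −0.09 beside 0.19 over all tested genes (27.4% higher and 9.97% lower), and 6 higher and 4 lower in Panc89 Holoclone cells, with a median of −0.15 beside 0.09 (22.4% and 13.3%). The shares that were higher between the clones were near those of all tested genes. Under both other scalings the counts were 5 higher and 7 lower in Panc1 and 5 higher and 6 lower in Panc89, and the share of calls over all tested genes that were higher also fell in both lines. The Notch ligand gene *JAG1* differed in both lines and in opposite directions, lower in Panc1 (−1.79) and higher in Panc89 Holoclone cells (1.90), and *SMAD3*, a mediator of TGF-beta, was lower in parental Panc89 than in parental Panc1 cells (−2.69) and in Panc89 Holoclone than in Paraclone cells (−1.12).

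The members whose group means spanned more than 2 were each matched with the 3 tested genes of most similar pattern, by the root mean square difference of the centered log2(TPM + 1) values over the 18 libraries. For *ZEB1* these were *MICAL1* (0.30), *FHL2* (0.35) and *CCDC92* (0.36), where the median tested gene was at 1.86. *MICAL1* shared the small excess of Panc89 Paraclone cells, with a mean of 2.50 there beside 1.92 in parental and 1.79 in Holoclone cells. For *SNAI1* the nearest was *GNE*, at 0.59, with 5.73 in parental, 1.52 in Holoclone and 4.48 in Paraclone cells of Panc89. For *SNAI2* they were *LINC01980*, *DAPP1* and *SLCO1A2*, each at 0.25. *DAPP1* was also highest in Panc89 Holoclone cells, at 4.68 beside 3.41 in parental and 3.56 in Paraclone cells.

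For *OVOL1* the nearest were *BTBD6* (0.18) and *RAB17* (0.20), and for *OVOL2* they were *PIWIL1* (0.32), *COBL* (0.32) and *SCAT1* (0.35). *COBL* had the *OVOL2* order within Panc89, with 3.28 in Paraclone, 2.86 in parental and 1.08 in Holoclone cells. For *TCF4* they were *CASC15* (0.35), *RBM20* (0.36) and *CCDC85C* (0.36), beside 0.93 for the median tested gene. *RBM20* was at 1.88 in Panc1 Holoclone cells and at no more than 0.12 in the other groups. Patterns over 6 groups of 2 lines leave many genes alike, and these matches are a description.

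Of 9 antisense transcripts listed for these genes, 6 were in the table and 2 were tested. *ZEB1-AS1*, transcribed opposite to *ZEB1*, did not follow it: its means were 2.53 (parental), 2.33 (Holoclone) and 2.02 (Paraclone) in Panc1 and 1.71, 2.75 and 2.80 in Panc89. In Panc89 it was higher than in parental cells in both Holoclone (1.04, adjusted p = 0.00145) and Paraclone cells (1.09, adjusted p = 0.00129, limma-trend). The kit marks strand, the strand setting of the quantification is not given in the sources used here, and 4.25% of the 31-base stretches of *ZEB1* transcripts are shared with other genes, the most with *ZEB1-AS1*. *ZEB2-AS1* and *OVOL1-AS1* stayed under 1 TPM, and *TCF4-AS1* and *TCF4-AS2* were listed at 0 in every library. *SNHG28*, also on the list, overlaps none of the 10 genes.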

How the data were processed

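RNA from 3 passages of each of 6 populations was sequenced as paired-end reads from stranded mRNA libraries. The authors pseudoaligned the reads to GRCh38 transcripts with kallisto 0.46.1, and the deposited values behave as log2(TPM + 1) per gene, since raised back to TPM each library sums to nearly the same total, so the depth behind a value is unknown. The table holds no counts, p-values or fold changes of the authors. All 18 columns were assigned to samples by name. Genes reaching 1 TPM in at least 3 libraries (16093 of 40266) entered limma-trend (limma 3.58.1, R 4.3.3) with the 6 group means as 1 model over all libraries, the test for normalized log values, and Benjamini-Hochberg adjustment over all tested genes. The step was tested on simulated data. The 10 genes and all lists were chosen with earlier results of these data known. From each list the text names *CDH1* and *VIM*, the antisense genes, and up to 3 called genes per direction with a group mean of at least 10 TPM and no overlap of libraries. Some genes that this rule names are not reported here. *MIR200CHG* and *MIR205HG* were named after their values were seen. Alternatives were another offset, filter, scaling, threshold, pool of libraries, a replicate block and leaving out each library. List counts under other scalings were chosen after seeing the data. Sequences came from RefSeq (GRCh38.p14), and transcript models from GENCODE 44. Figures were drawn with matplotlib 3.10.9.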

Additional observations from a re-analysis of the deposited data

Results flagged for a closer look

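The Holoclone against Paraclone difference of Panc89 and that of Panc1 differed past the threshold for 8 of the 8 tested genes, by the test of the difference itself in limma-trend with Benjamini-Hochberg adjustment over all genes, which 35.1% of all tested genes also passed. *ZEB2*, *SNAI2*, *OVOL1* and *OVOL2* could enter the test only by being high in Panc89. In Panc1 libraries *SNAI2* was at no more than 0.22 and *OVOL1* at no more than 0.09, so their values are nearly the change between the Panc89 clones alone. Counted as the Panc89 minus the Panc1 log2 fold change, the values were negative for *TCF4* (−2.51, SE 0.34, adjusted p = 3.74e-05), *OVOL2* (−2.42, SE 0.23, adjusted p = 1.2e-06), *ZEB2* (−1.47, SE 0.20, adjusted p = 3.65e-05), *SNAI1* (−1.22, SE 0.25, adjusted p = 0.00161), *ZEB1* (−1.17, SE 0.37, adjusted p = 0.0232) and *OVOL1* (−0.58, SE 0.21, adjusted p = 0.041). They were positive for *TWIST2* (1.22, SE 0.35, adjusted p = 0.0125) and *SNAI2* (0.81, SE 0.24, adjusted p = 0.0171). For *ZEB2* and *OVOL2* the clone differences of the lines pointed in opposite directions, with all Panc1 values of both genes under 1 TPM. For *SNAI1* they pointed the same way at unequal size. Each clone population is 1 clone, so the line and the clone cannot be told apart as the source of such a difference. With an offset of 0.1 TPM the values were −2.51 for *ZEB1*, −3.04 for *ZEB2*, −1.90 for *SNAI1* and −4.45 for *OVOL2*, while *OVOL1* lost the threshold (−0.71, adjusted p = 0.134). *OVOL1* also lost it with no filter (adjusted p = 0.0716) and with the groups fitted alone (adjusted p = 0.0915). *ZEB1* lost it with the groups fitted alone (adjusted p = 0.062) and under both other scalings (adjusted p = 0.0618 and 0.0643). The *ZEB1* call was also lost without Panc89 Holoclone replicate 2 (−1.10, adjusted p = 0.0542, all limma-trend).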

How the results depend on the processing

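Of 80 log2 fold changes of the tested genes, 50 passed the threshold, and 0 of these changed direction under any alternative run. Of 1078 recomputed values, 528 left out 1 library, and of these 24 lost the threshold, 0 gained it and 13 turned direction. Of the 550 others, 19 lost it, 7 gained it and 5 turned direction. The values that turned were uncalled and near 0. Under upper quartile and median-of-ratios scaling these were *ZEB1* between the Panc1 clones (−0.0078 and −0.033) and *TWIST2* between the Panc89 clones (−0.070 and −0.10), and under median-of-ratios scaling *TCF4* between the parental lines (0.022). With 1 library left out, *TCF4* between the parental lines ran from −0.28 to 0.11, *OVOL1* between the Panc1 clones from −0.0051 to 0.025, *TWIST2* between the Panc89 clones from −0.25 to 0.35, *TCF4* between the Panc89 clones from −0.17 to 0.13, *OVOL1* in Panc1 Paraclone against parental cells from −0.010 to 0.033 and *TWIST2* in Panc89 Holoclone against parental cells from −0.10 to 0.49. The cause was not tested.

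The number of these genes past the threshold fell to 3 in Panc1 and 2 in Panc89 for the clone contrast when a log2 fold change over 1 was also required. With no filter, *PRRX1* entered and also passed for Panc1 Holoclone against parental cells. For Panc1 Paraclone against parental cells, *ZEB2* (−0.77) and *OVOL2* (−1.43) also passed with an offset of 0.1 TPM. That offset also enlarged the fold changes of low genes, such as *OVOL2* between the Panc1 clones (2.20), *ZEB1* between the Panc89 clones (−2.27) and *OVOL1* between the parental lines (7.30). Over all tested genes, the Panc89 clone contrast had 5746 calls with all libraries and 3377 when its 2 groups were fitted alone. Requiring a log2 fold change over 1 left 1860 of 6006 calls between the Panc1 clones and 2124 of 5746 between the Panc89 clones. The share of calls that were higher moved from 73.3% to 51.3% and 47.7% between the Panc1 clones under upper quartile and median-of-ratios scaling, from 62.8% to 52.5% and 49.3% between the Panc89 clones, from 25.6% to 47.4% and 53.0% for Panc1 Paraclone against parental cells, from 65.2% to 51.3% and 51.0% for Panc89 Holoclone against parental cells and from 41.6% to 48.3% and 51.8% between the parental lines.

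Within a line, replicate numbers did not pair the samples: deviations of same-numbered libraries correlated at −0.318 to 0.190 (18 pairs, 3 over 0.1), and 2 of 18 libraries correlated best with their own number. Between the lines, same-numbered libraries correlated at −0.274 to 0.275 (27 pairs, 8 over 0.1). With the number as a replicate block, the calls of the 8 genes were the same as without it, except for the difference of the clone contrasts, where *OVOL1* was lost (adjusted p = 0.0559 in limma-trend). The depth of the libraries is unknown, so values under 1 TPM carry an error that cannot be stated, and *TWIST1* at 0 has no upper limit.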
